A study of Mus musculus with 23 samples.

Results

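Methylation of the maternal and the paternal allele was compared in the extra-embryonic ectoderm (ExE) of E7.5 mouse embryos, in 4 bisulphite libraries (PBAT, post-bisulphite adaptor tagging), each from 1 wild-type embryo. There were 2 libraries of B6/CAST embryos, with a C57BL6/Babr (B6) mother and a CAST/EiJ (CAST) father, and 2 of the reciprocal CAST/B6 cross. Reads had been assigned to a parental genome by strain variants, and methylation is given in percent per window for each allele. Maternal minus paternal methylation was taken within each library, in percentage points, so that a positive value means a more methylated maternal allele. Of 384346 windows on chromosomes 1 to 19, 318358 had both alleles in all 4 libraries. These windows had a median length of 5252 bp and held a median of 51 CpGs. Comparison was made with 4 E7.5 epiblast libraries of the same crosses, and with E6.5 ExE of both crosses (4 libraries) and of matDKO/CAST embryos (3 libraries). The matDKO/CAST mothers were of a B6/129 background and carried floxed Dnmt3a and Dnmt3b alleles deleted by Zp3-Cre, which acts in the growing oocyte, so that the embryos were Dnmt3a -/+ and Dnmt3b -/+ by maternal inheritance and the oocyte genome lacked de novo methylation. The E6.5 libraries were made from pools of embryos and were not split by allele.

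Genomic imprinting is the inheritance of different epigenetic states on the maternal and the paternal copy of a locus. At germline differentially methylated regions (gDMRs), DNA methylation laid down in the oocyte or in sperm is kept on that allele in the embryo. In the placental lineage, long non-coding RNAs transcribed from such regions, among them Airn and Kcnq1ot1, repress neighbouring genes of the paternal chromosome over long distances, and a further group of loci, termed non-canonical, carries imprinted H3K4me3 without methylation from the oocyte. The ExE is the trophoblast tissue that contributes to the placenta, and the epiblast forms the embryo itself.

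Across the autosomes the alleles were balanced. Mean maternal methylation lay between 57.3% and 61.2% in the 4 ExE libraries, and mean paternal methylation between 57.9% and 61.3%. The maternal minus paternal mean was 0.57 and 0.51 points in B6/CAST and -0.84 and -0.60 points in CAST/B6, so its sign followed the strain and not the parent. The mean over the 4 libraries was -0.09 ± 0.74 points (SD, n = 4, two-sided exact sign-flip permutation test, p = 0.75, the smallest p this design can give being 0.125). Dissection was checked at the starts of 3 lineage genes in the unsplit E7.5 data. Over the window at Elf5, a trophoblast regulator, methylation was 60.8% to 69.1% in ExE and 80.4% to 92.6% in epiblast. At the pluripotency genes Pou5f1 and Nanog it was higher in ExE, at 25.5% to 28.0% against 7.41% to 12.3% and at 51.6% to 62.6% against 37.4% to 45.5%. Every ExE library was below every epiblast library in 73.8% of all autosomal windows, so the order at Elf5 is that of most of the genome, and above every epiblast library in 1.35%. The number of reads behind each value is unknown, because the tables hold no coverage.

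A difference of at least 30 points in the same parental direction in all 4 libraries was found in 49 windows (0.0154% of all windows). The maternal allele was the more methylated in 33 of them (0.0104%) and the paternal allele in 16 (0.00503%). The opposite arrangement, in which the same strain was higher in all 4 libraries, was met by 14 windows with B6 higher (0.0044%) and by 0 with CAST higher, which gives the number that strain differences produce under the same rule. Joined within 25 kb, the 49 windows formed 26 loci, 22 maternal and 4 paternal. In limma, with p-values adjusted over all windows (Benjamini-Hochberg), 23 windows passed 0.05 (0.00722%), 16 with the maternal (0.00503%) and 7 with the paternal allele higher (0.0022%). All 23 lay in 16 of the 26 loci. When any 1 library was left out, 0 windows passed, with 1 residual degree of freedom. No window passed for the strain effect. For the parental effect 20303 windows (6.38%) had an unadjusted p under 0.05.

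Sequences of 6 windows are shown because they carry the strongest difference of each parental direction and 4 of the maternal loci whose epiblast mean was under 30 points. Each is the stretch of the window with the most CpGs, from the plus strand of GRCm38, and capitals mark the CpGs, the dinucleotides at which methylation is read. They are chr7:143295477-143295636 at Kcnq1ot1, chr9:89879655-89879814 upstream of Rasgrf1, chr3:41555510-41555669 at the start of Jade1, chr2:169006470-169006629 upstream of Zfp64, chr4:150879113-150879272 downstream of Errfi1 and chr5:135349938-135350097 at the start of Fkbp6.
Kcnq1ot1: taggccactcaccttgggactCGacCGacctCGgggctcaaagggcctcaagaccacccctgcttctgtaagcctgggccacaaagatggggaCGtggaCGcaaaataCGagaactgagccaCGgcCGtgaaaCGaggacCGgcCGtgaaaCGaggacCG
Rasgrf1: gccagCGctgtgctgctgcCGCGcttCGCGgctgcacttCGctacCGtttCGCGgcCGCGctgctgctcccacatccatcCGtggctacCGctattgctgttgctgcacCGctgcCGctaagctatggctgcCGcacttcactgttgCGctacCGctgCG
Jade1: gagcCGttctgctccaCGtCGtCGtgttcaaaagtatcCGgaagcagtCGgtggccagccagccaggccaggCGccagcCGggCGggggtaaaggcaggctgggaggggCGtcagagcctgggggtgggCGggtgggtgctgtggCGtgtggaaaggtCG
Zfp64: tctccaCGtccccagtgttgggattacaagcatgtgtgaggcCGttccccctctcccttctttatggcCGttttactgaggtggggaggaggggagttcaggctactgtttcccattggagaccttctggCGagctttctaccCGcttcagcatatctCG
Errfi1: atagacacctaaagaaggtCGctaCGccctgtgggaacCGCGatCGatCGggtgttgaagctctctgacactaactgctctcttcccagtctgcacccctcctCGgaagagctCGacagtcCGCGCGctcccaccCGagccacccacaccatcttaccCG
Fkbp6: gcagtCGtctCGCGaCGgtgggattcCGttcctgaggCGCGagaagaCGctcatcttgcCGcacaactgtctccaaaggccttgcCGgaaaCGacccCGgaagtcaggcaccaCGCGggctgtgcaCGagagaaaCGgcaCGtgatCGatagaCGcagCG
The Rasgrf1 stretch holds 19 CpGs and 3 matches to TGCCGC, the Fkbp6 stretch 20 CpGs and 1 match, and the other 4 stretches 13, 13, 6 and 13 CpGs in the order printed and 0 matches. TGCCGC is the core recognised by ZFP57, a zinc finger protein that protects methylated gDMRs, and was searched on both strands. It occurred in 23 of the 33 maternal windows (69.7%) and in 10 of the 16 paternal windows (62.5%). Among all windows within the same ranges of length the shares were 35.0% and 37.4%.

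The 12 maternal loci that held a called window were all at known imprinted genes. They comprised Nespas and Gnas, Mest, Peg3, Snrpn, Kcnq1ot1, Plagl1, Grb10, Zrsr1, Peg13, Slc38a4, Airn and Impact. In each locus the window whose smallest difference over the 4 libraries was largest is described. Over the 12 loci, mean maternal methylation of that window was at least 79.4% and mean paternal methylation at most 18.9%. The largest difference was at Kcnq1ot1, the antisense RNA of the Kcnq1 cluster, in a window at chr7:143293438-143295636 within Kcnq1. The maternal allele there was methylated at 94.2%, 96.8%, 93.8% and 94.5% and the paternal allele at 1.49%, 0.5%, 1.09% and 1.98%, in the order B6/CAST 1 and 2, CAST/B6 1 and 2. The alleles were separated by 93.6 ± 1.81 points (SD, n = 4, limma adjusted p = 0.027), and no library was below 92.6 points.

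**Figure D1:**
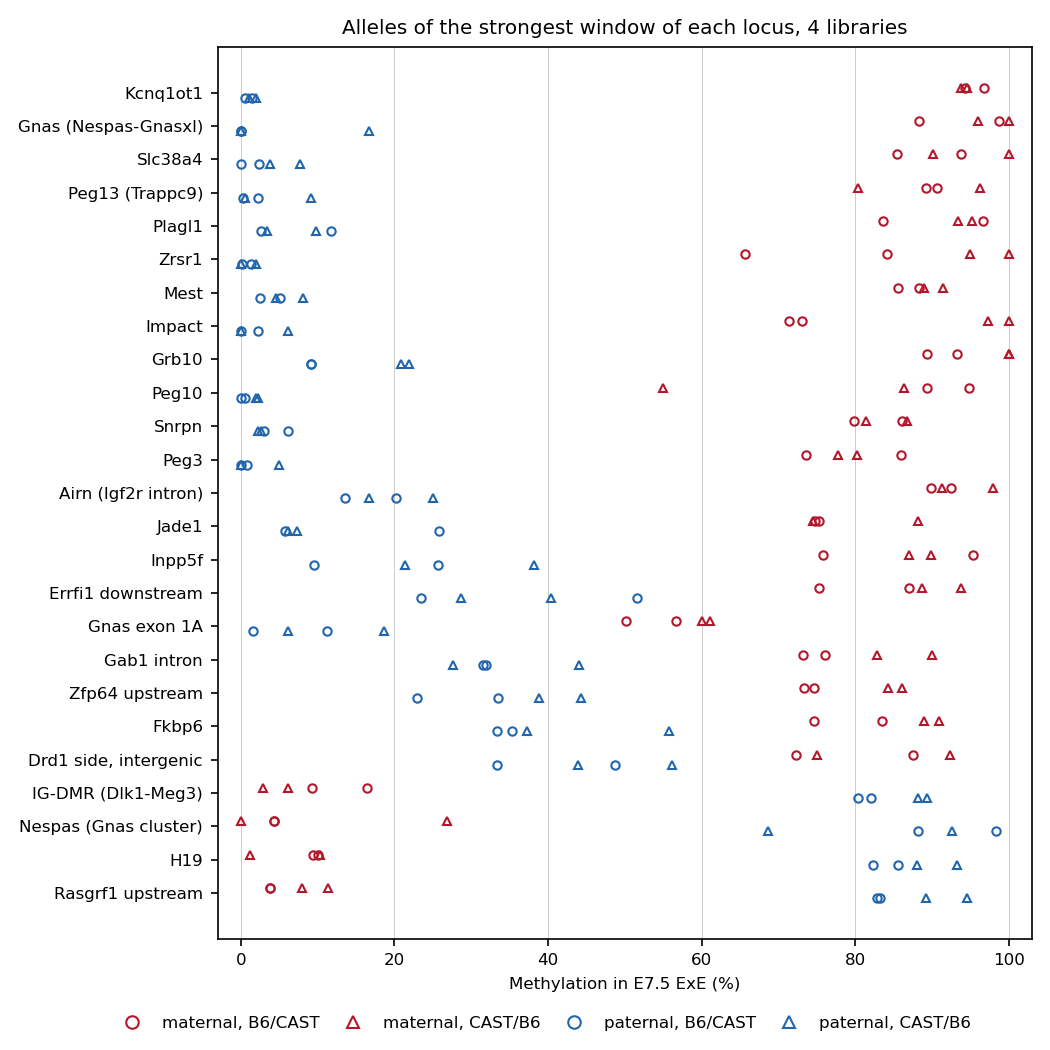
Methylation in percent (x axis) of the maternal (red) and paternal (blue) allele at the described window of 25 of the 26 loci (y axis), with 1 point per E7.5 ExE library, circles for B6/CAST and triangles for CAST/B6. The alleles are apart by at least 30 points in every library by the rule of choice. Paternal methylation is near 0 at most of the upper loci and between about 20% and 60% at most of the lower maternal ones. An exception among the latter is Gnas exon 1A, at 1.58% to 18.7%.

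At Slc38a4, an amino acid transporter gene, the intronic window beside the start (chr15:97054490-97055278) differed by 93.8, 83.1, 92.3 and 86.3 points. At Plagl1, which encodes a zinc finger transcription factor, the difference was 81.0, 84.9, 91.8 and 83.7 points, and at Mest, which encodes a hydrolase-fold protein, it was 83.2, 83.2, 80.7 and 86.7 points. All 4 libraries were therefore above 80 points at these 3 genes. The Grb10 window (chr11:12026503-12030208) covers an alternative transcript start of this growth-factor-receptor adaptor. It differed by 80.2, 84.1, 79.2 and 78.1 points (limma adjusted p = 0.027). The window at the annotated main Grb10 start, by contrast, differed by 59.5 and 49.4 points in B6/CAST and by 14.1 and -4.5 points in CAST/B6, so that the crosses did not overlap there.

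Some known loci varied more between libraries. At Zrsr1, a retrogene within Commd1, the 638-bp window differed by 84.0, 64.3, 100 and 92.9 points and still passed (limma adjusted p = 0.0322). At Peg10, a retrotransposon-derived gene needed for placental development, the difference was 94.3, 89.3, 52.7 and 84.3 points, and the window did not pass the test (80.2 ± 18.8, limma adjusted p = 0.104). Its paternal allele was at 1.20% ± 1.12, and the low value of the first CAST/B6 library came from the maternal allele. Inpp5f, a phosphoinositide phosphatase gene, was at 63.3 ± 17.5 points (limma adjusted p = 0.672).

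All 4 paternal loci held a called window, and the mean difference was between -80.8 and -76.2 points. At the Rasgrf1 upstream region (chr9:89878612-89880482), which controls a Ras guanine nucleotide exchange factor and lies 29426 bp from its start, maternal methylation was 3.76%, 3.77%, 7.92% and 11.4% and paternal methylation 82.9%, 83.3%, 89.3% and 94.5%. The difference of -80.8 ± 1.84 points had a limma adjusted p of 0.027. The imprinting control region upstream of H19 (chr7:142580361-142582087) differed by -72.9, -75.5, -77.7 and -92.0 points, and the intergenic region between Dlk1 and Meg3 (chr12:109528391-109530547) by -71.0, -65.6, -82.0 and -86.4 points. The fourth was a Gnas transcript start beside Nespas, the antisense RNA of that cluster, at -78.0 ± 13.3 points (limma adjusted p = 0.0291). It lay next to the maternal Nespas and Gnas locus, so both directions occurred within the same cluster. The paternal loci spanned 5432 to 17713 bp and the maternal ones 545 to 8360 bp.

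The described windows of 21 loci had both alleles in at least 3 epiblast libraries. At 15 of them the epiblast showed the same direction in every measured library and a mean of at least 30 points. These included all 12 loci with a called window that were measured. At Kcnq1ot1 the epiblast difference was 94.4 ± 3.93 points (n = 4), against 93.6 in ExE. The other 6 were all maternal, and none of them held a called window. The ExE values had chosen these loci, so their lower epiblast values are a description, and the contrast of the tissues passed at none of those tested. Those described here are Jade1, Errfi1, Zfp64, Fkbp6 and Gab1.

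**Figure D2:**
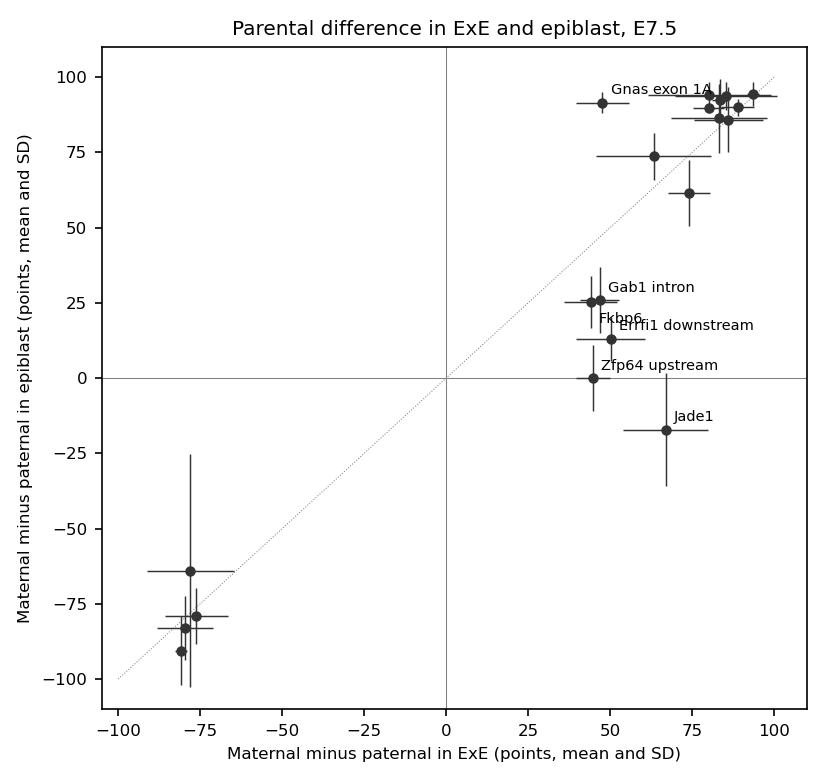
Maternal minus paternal methylation in percentage points in E7.5 ExE (x axis) and E7.5 epiblast (y axis) at 20 of the 21 loci with both alleles in at least 3 epiblast libraries, as mean and SD over libraries, with the dotted line at equal values. Jade1, Zfp64 and Errfi1 are at -17.1 to 13.04 points in epiblast and at 44.7 to 66.9 points in ExE, and Gnas exon 1A lies above the line.

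Jade1 (also Phf17), a component of a histone acetyltransferase complex, gave the widest gap between the tissues. In the window over its start (chr3:41555363-41556626) ExE maternal methylation was 74.7%, 75.3%, 88.2% and 74.4% and paternal methylation 5.73%, 25.8%, 7.36% and 6.12%. The difference was 66.9 ± 12.97 points. In epiblast both alleles were methylated, with means of 75.5% maternal and 92.6% paternal and a difference of -17.1 ± 18.8 points (n = 4). The contrast of ExE with epiblast was 84.0 points and did not pass adjustment (limma adjusted p = 0.56 over 237650 windows). In that contrast 0 windows passed in limma and 12852 (5.41%) had an unadjusted p under 0.05. With the variance moderated along the methylation level and a robust fit, 1 window passed, and it was this one.

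In the intergenic window 49954 bp from the start of Zfp64, a zinc finger gene (chr2:169005541-169008105), the ExE difference was 39.8, 51.7, 45.5 and 41.8 points. Paternal methylation in ExE was 34.9% ± 9.07, and in epiblast both alleles averaged near 80% (79.6% maternal, 79.7% paternal). The contrast was 44.8 points (limma adjusted p = 0.912). In an intergenic window downstream of Errfi1, which encodes a negative regulator of epidermal growth factor receptor signalling, and 24256 bp from its start, the difference was 35.4, 51.8, 53.3 and 59.9 points in ExE and 13.04 ± 7.22 points in 3 epiblast libraries. At the start of Fkbp6, a co-chaperone of the male germline, it was 50.1, 39.3, 35.1 and 51.7 points in ExE and 25.3 ± 8.74 in epiblast, where all 4 libraries were maternal too, and the contrast was 18.7 points (limma adjusted p = 0.912). In the intron of Gab1, a docking protein of receptor tyrosine kinases, it was 44.6, 41.2, 55.2 and 45.9 points in ExE and 25.9 ± 10.8 in 3 epiblast libraries. At these 4 loci the ExE paternal allele kept 33.8% to 40.4% methylation on average, in place of the 0.859% to 18.9% found at the called maternal loci.

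The Gnas exon 1A window, an alternative first exon, had the lower difference in ExE. ExE differed by 38.9, 55.1, 42.4 and 53.9 points and epiblast by 91.5 ± 3.47 points (n = 4). The paternal allele was low in both tissues (9.42% and 1.34%), whereas the maternal allele was at 56.98% ± 4.93 in ExE and 92.8% in epiblast. The contrast of -43.9 points had a limma adjusted p of 0.912.

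Of the 26 loci, 25 were within 100 kb of a listed imprinted gene or imprinted H3K4me3 peak. The exception was an intergenic window of 5803 bp (chr13:53904653-53910455), 145250 bp from the start of Drd1, a dopamine receptor gene. ExE maternal methylation there was 87.5%, 72.2%, 92.3% and 75% and paternal methylation 48.7%, 33.3%, 56.1% and 43.9%. The difference of 36.3 ± 3.63 points did not pass the test (limma adjusted p = 0.595). Drd1 is itself on the study's list of imprinted genes, and the gene body lay 140728 bp from the window, so that no locus remained at a distance of 1 Mb. Only 1 epiblast library had both alleles in the window, and its difference was -20.75 points, the opposite direction. Without allele separation, E7.5 methylation of the window was 62.2% in ExE and 82.8% in epiblast. In E6.5 ExE it was 60.4% ± 8.23 in wild type and 41.8% ± 12.9 in matDKO/CAST, and the genotypes overlapped.

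Under a minimum of 20 points, 22 loci lay more than 100 kb from the lists, 11 in each direction. At this level 71 windows were maternal and 40 paternal (0.0223% and 0.0126%), against strain patterns in 118 windows with B6 higher (0.0371%) and 40 with CAST higher (0.0126%). Strain patterns of this size were thus more frequent than parental ones. None of the 22 passed the test. A few are named here, chosen after their values were seen. The window at a transcript start of Otx2, a homeobox gene of the early embryo, differed by 29.9, 20.03, 23.7 and 20.4 points. An intron of the growth factor gene Fgf9 differed by 28.8, 24.2, 34.2 and 30.2 points, and the start of Gcnt4, a glycosyltransferase gene, by 22.4, 30.8, 23.4 and 37.4 points. In the paternal direction an exon of Galnt13 differed by -31.1, -28.4, -32.5 and -29.9 points and the start of Kbtbd11 by -21.4, -25.6, -27.6 and -27.7 points.

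The study's imprinted H3K4me3 peaks of ExE were examined by class, in the shortest window over each peak. They were chosen from histone marks of the same tissues and not from these methylation values. The 14 peaks at maternal gDMRs had a median difference of 83.2 points. Of these, 12 were maternal in all 4 libraries and 10 windows passed the test. The exceptions were the peak over Nespas and Gnas, whose shortest window fell on the paternal part of that cluster (-59.7 points), and H13 with Mcts2, whose shortest window was at -0.474 ± 14.9 points. The window nearest the start of Mcts2 itself was at 32.4 points. The 2 peaks at paternal gDMRs, Meg3 and H19, were at -76.9 and -61.1 points. Over all windows the median difference was -0.0786 points, 6.32% were maternal in all 4 libraries and 0.00722% passed the test.

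There were 15 non-canonical peaks with H3K4me3 on the paternal allele. That of Slc38a4 overlaps a maternal gDMR and is counted above with the gDMR peaks (88.9 points, called). The other 14 had a median of 3.96 points, and all 15 had 6.24 points. When all windows centred in a peak were averaged, the median was 7.49 points over those of the 14 peaks that held such a window. The median of the shortest windows of the 14 was 0.84 to 8.65 points when 1 library was left out. Of the 14, 4 were maternal and 2 paternal in all 4 libraries, and 0 passed the test, where 6.32%, 6.27% and 0.00722% of all windows did. Gab1 was the highest of them at 46.7 points and an intergenic peak on the 5′ side of Slc38a4 the lowest at -17.0 points. At the peak beside Smoc1 the difference was 3.8, 5.5, 28.0 and 38.9 points, so only the CAST/B6 libraries were high. The shortest window over the Jade1 peak was unmethylated on both alleles (1.22% maternal and 0.24% paternal), although another window under the same peak was the Jade1 locus above. The shortest window need not cover the long terminal repeats (LTRs) of endogenous retroviruses in a peak. The study reported that transcribed LTRs in such peaks were methylated on the maternal allele in E7.5 ExE. The medians given here were not taken over LTRs and do not test that result. In epiblast the median of the 11 measured peaks was -0.449 points. The 2 non-canonical peaks with H3K4me3 on the maternal allele, at Cd81, a tetraspanin gene of the Kcnq1 cluster, and Pde10a, were paternal in all 4 libraries, at -15.3 and -2.31 points.

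The 14 other canonical peaks with H3K4me3 on the paternal allele had a median of 11.1 points in ExE and 10.4 in the 10 measured in epiblast. In ExE 5 were maternal and 1 paternal in all 4 libraries and 0 passed. Errfi1 was the highest. Myl2, a myosin light chain gene, was at 26.4, 29.6, 21.1 and 24.7 points in ExE and at -2.48 points in epiblast. At the starts of the study's listed imprinted genes, 99 of 109 of which had a window, the median was -0.148 points, with 20 maternal and 15 paternal in all 4 libraries and 8 called, where 6.32%, 6.27% and 0.00722% of all windows were. Peg3 and Usp29 share 1 of the called windows.

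Other canonical peaks with H3K4me3 on the maternal allele were of both directions. Of 23, 8 were paternal and 1 maternal in all 4 libraries, where 6.27% of all windows were paternal in all 4. Their median was -3.60 points, and none passed the test. The values ran from -29.5 points at Igf2r to 29.6 points at Grb10, and Slc22a18, a transporter-like gene of the Kcnq1 cluster, was at 15.2 points. Some starts of the paternal direction follow. At Igf2r, which encodes the receptor that clears insulin-like growth factor 2, the start window had -26.9, -13.2, -46.7 and -31.2 points. At Cdkn1c, a cell cycle inhibitor gene of the Kcnq1 cluster, it had -34.6, -44.9, -13.5 and -9.97 points. In epiblast these starts were at -41.1 points (n = 4) and -50.2 points (n = 2), so the mean had the paternal direction in both tissues. Slc22a3, an organic cation transporter gene beside Igf2r, was at -17.8 ± 9.15 points in ExE with 19.1% paternal and 1.28% maternal methylation, and at 1.93 points in epiblast. Tssc4, a spliceosome factor gene of the Kcnq1 cluster, was at -16.04 points in ExE and -1.24 in epiblast, and Cd81 was at -3.88 in epiblast. At these 5 starts mean maternal methylation was 0.347% to 1.28%, and the paternal allele was at 15.6% to 29.9%.

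Neighbouring windows were also read together. Each library's difference was averaged over 100-kb bins with at least 10 windows, which was decided on only with the data in view. In limma 165 of 14594 bins passed an adjusted p of 0.05 (1.13%), 123 with the maternal (0.843%) and 42 with the paternal allele higher (0.288%). The strain effect passed in 185 bins (1.27%). The differences of the 165 bins were between 6.16 and 32.0 points in size. Of the 165, 84 had no other called bin of the same direction within 500 kb, and the remaining 81 formed 14 domains. Without the cross term 46 bins passed, and 43 to 63 when any 1 library was left out.

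The largest share of the maternal bins was on chromosome 17. Between the first and the last called bin of its 4 domains (chr17:3400001-14900000), a range that was itself set by these bins, 53 of 95 bins passed with the maternal allele higher, and 67 had that direction in all 4 libraries, against 8.87% of all bins. The mean over the 1826 windows of this range was 6.13, 7.67, 6.94 and 7.82 points, that is 7.14 ± 0.77 (SD, n = 4). In epiblast it was 0.93 ± 0.40 points. The difference was 6.13 or more in every ExE library and 1.33 or less in every epiblast library. As ExE values had set the range, this gap is a description. In ExE maternal methylation was 63.6% ± 1.78 and paternal methylation 56.4% ± 1.97.

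**Figure D3:**
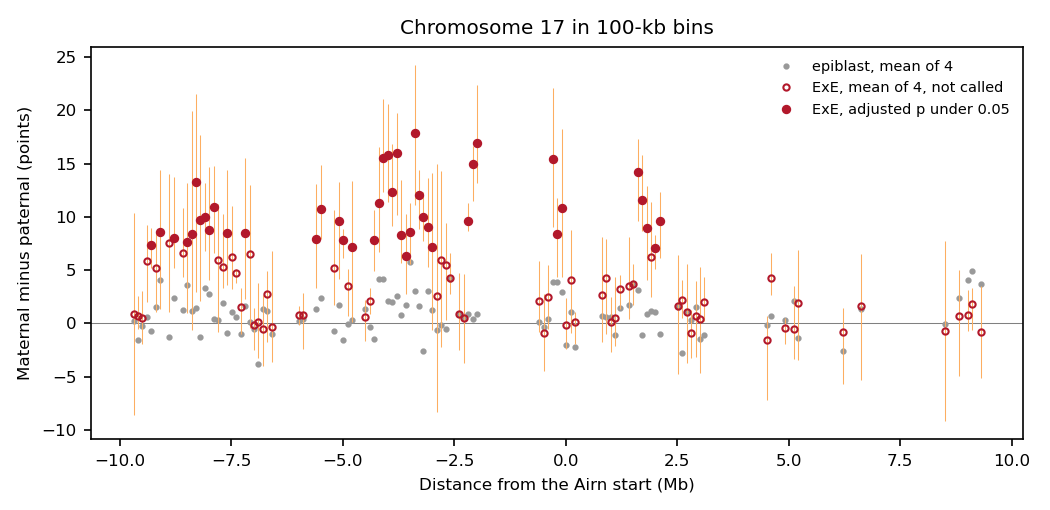
Maternal minus paternal methylation in percentage points (y axis) in 100-kb bins of chromosome 17 by distance from the Airn start in Mb (x axis), as the mean of 4 ExE libraries (red, filled where the adjusted p was under 0.05, lines from the lowest to the highest library) and of 4 epiblast libraries (grey). Bins of 1 gene are not drawn. The filled points lie above 0 on both sides of Airn, and epiblast stays near 0.

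This range holds Airn and its cluster (Igf2r, Slc22a2 and Slc22a3) and genes on both sides that the study lists, among them Arid1b, a chromatin remodeller subunit, Pde10a, a phosphodiesterase gene, and Smoc2, a matrix protein gene. Over the body of Pde10a the difference was 10.7, 13.96, 16.03 and 18.7 points in ExE and 0.96, 3.73, 4.66 and 1.80 points in epiblast. The tissues did not overlap. Over Airn itself the mean was -1.22 ± 1.33 points, and over Igf2r 7.45 ± 2.33. Of the 78 bins of the range that could be compared with epiblast, 23 differed between the tissues after adjustment (limma), where 0.274% of 10964 bins were higher in ExE and 0.319% differed in either direction. High ExE values had set the range and enter this contrast again, so the excess over these shares is partly built in. Over all bins 35 differed, and 9 without the second B6/CAST ExE library. In Pde10a the paternal allele was at 47.96% ± 2.85 and the maternal allele at 62.8% ± 3.25.

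In the Kcnq1 cluster 4 bins passed. Over the body of Kcnq1, a potassium channel gene, the difference was 7.65, 10.8, 19.4 and 19.3 points in ExE over 53 windows. In epiblast it was 2.76, 11.03, 13.6 and 10.8 points over 34 of these windows. The ranges overlapped, but on the shared windows the means were 17.9 points in ExE and 9.55 in epiblast. Of 3 tested bins over the gene, 2 differed between the tissues. These were the bin at chr7:143100001 and 1 that was not called in ExE. The bin at chr7:143300001 did not differ (limma adjusted p = 0.514). The domain at chr7:142900001-143400000 was at 9.95 ± 4.52 points in ExE. Over its windows also measured in epiblast it was at 11.4 points in ExE and 6.84 ± 3.05 in epiblast. A second domain of 2 bins in Shank2, a scaffold protein gene further along the chromosome, was at 7.24 ± 2.95 points in ExE and 1.59 ± 2.11 in epiblast.

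Around Grb10 the maternal allele was the higher far beyond the window described above. Over the gene body the difference was 17.7, 20.4, 22.7 and 23.95 points, and over the 150 kb upstream of the start 22.5 ± 1.05 points. In the 150 kb downstream it was 1.48 ± 1.45 points, the lowest of the 3 stretches. The bin that starts at chr11:12000001 was the largest of all, at 32.04 points (limma adjusted p = 8.59e-05), and had too few windows in epiblast to be compared. The other bin over the gene did not differ between the tissues (limma adjusted p = 0.648). The epiblast mean over the gene body was 7.46 ± 3.01 points over 11 of its 14 windows. Over the same 11 windows the ExE mean was 17.1 points.

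Sfmbt2, a polycomb group gene with non-canonical imprinting and paternal expression in trophoblast, had opposite signs at its start and in its body. In the window at the start the difference was 27.8, 13.8, 21.2 and 11.8 points, with 20.8% maternal and 2.15% paternal methylation. Over the 224.7-kb gene body it was -17.5, -20.6, -25.7 and -20.7 points. Of 39 windows in the body 30 were paternal in all 4 libraries and 0 maternal (6.27% and 6.32% of all windows). The means were 79.2% ± 1.47 on the paternal and 58.1% ± 3.31 on the maternal allele. In epiblast the body difference was -6.07, -8.46, -9.74 and -3.19 points, and 2 of 3 bins differed between the tissues. In the 150 kb downstream of the gene the ExE mean was -0.63 ± 4.26 points. In the 150 kb upstream it was -3.69 ± 2.51 points, with 8 of 34 windows paternal and 4 maternal in all 4 libraries. This mean hides low windows near the gene. That at -34.8 kb from the start was at -30.9, -33.4, -17.6 and -40 points. That at -13.2 kb was at -27.3, -41.9, -30.8 and -40.9 points in ExE and -18.9 in epiblast. The bin at chr2:10300001, which reaches from the upstream side into the gene, was called at -11.1 points.

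**Figure D4:**
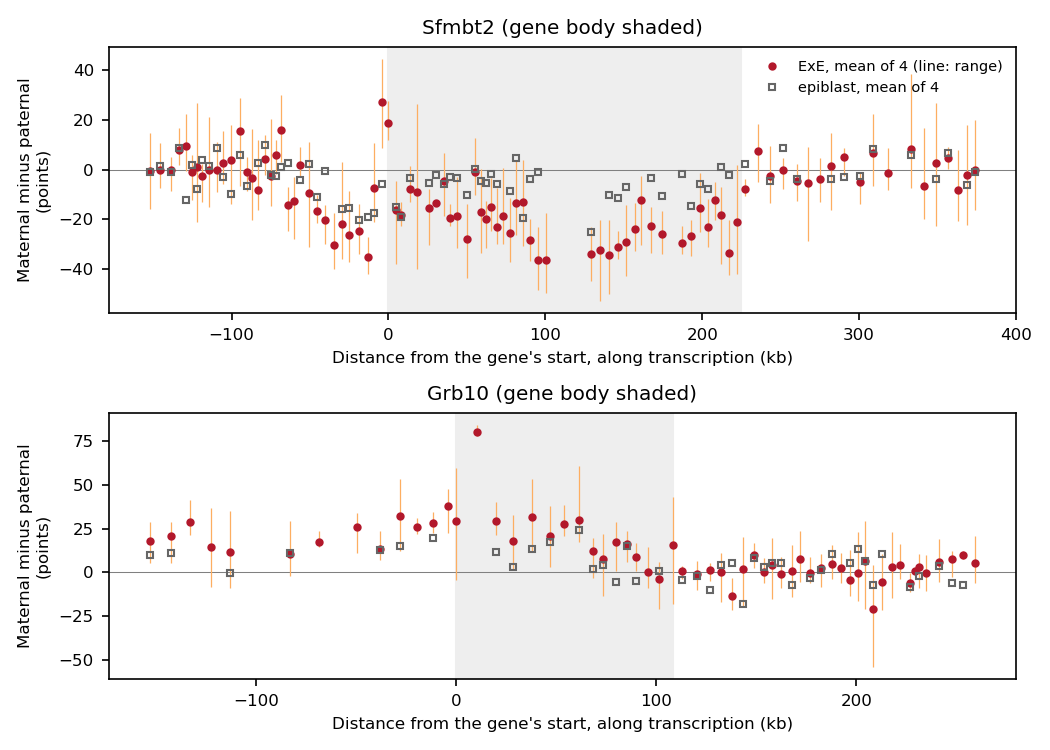
Maternal minus paternal methylation in percentage points (y axis) per window along Sfmbt2 and Grb10 by distance from the gene's start in kb (x axis), with the gene body shaded, as the mean of 4 ExE libraries (red, lines from lowest to highest) and of 4 epiblast libraries (grey squares). In Sfmbt2 the ExE values are above 0 at the start and under 0 through the body, and in Grb10 they are above 0 upstream and in the first part of the body.

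Smoc1, a matrix protein gene with a non-canonical peak beside it, was also maternal at its start and paternal over its body. The start was at 41.4, 16.3, 30.1 and 8.59 points and the body at -6.42, -12.1, -17.2 and -17.8 points in ExE, with -0.82 ± 1.54 points in epiblast. Both of its bins passed in ExE and in the contrast with epiblast. Neither this start nor that of Sfmbt2 passed the window test. In the Dlk1 and Meg3 cluster the bins of the control region were paternal (-11.7 ± 2.59 points), while Rian, a maternally expressed non-coding RNA of the cluster, was maternal at 16.5, 16.2, 14.5 and 19.6 points over its body. In epiblast Rian was at 11.6 ± 1.65 points, and its bin differed between the tissues (limma adjusted p = 0.0273).

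A few domains were not near any listed gene. On chromosome 12, 5 bins within chr12:106500001-107600000 were paternal and the mean over that range was -6.61 ± 5.30 points in ExE and -2.80 ± 3.17 in epiblast, with 0 of 11 bins different between the tissues. The libraries were at -1.75 and -2.40 points in B6/CAST and at -12.1 and -10.2 points in CAST/B6. The nearest listed gene, Begain, was 1432187 bp away. Bin pairs in Elavl2, which encodes a neuronal RNA-binding protein (9.04 ± 4.16 points), and in Anks1b, a gene of postsynaptic proteins (8.61 ± 4.30 points), were maternal, and a pair within chr7:36800001-37300000 was called as paternal (-4.62 ± 4.14 points over the range). That range was at 0.11 and -2.40 points in B6/CAST and at -8.26 and -7.94 points in CAST/B6, so the CAST/B6 libraries were the lower in both paternal ranges and the first B6/CAST library was not paternal on chromosome 7. None of these differed between the tissues after adjustment.

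Methylation at the 26 loci was then read in E6.5 ExE, where alleles were not separated and the wild-type and matDKO/CAST libraries had not been used to choose the loci. Over the 20 maternal loci measured in every library the mean was 51.6% and 49.9% in B6/CAST, 68.8% and 59.6% in CAST/B6, and 24.6%, 23.9% and 22.9% in matDKO/CAST. The matDKO/CAST libraries were all lower, with a difference of means of -33.7 points (exact permutation test, two-sided, p = 0.0286, which is the minimum for 3 against 4 libraries). The mean over all autosomal windows also differed, by -18.3 points (38.6% ± 1.19 against 56.9% ± 7.38). Relative to each library's mean the difference was -15.4 points (exact permutation test, p = 0.0286). Against the B6/CAST libraries alone it was -27.0 points (exact permutation test, p = 0.1, the minimum for 3 against 2). The B6/129 background of the mothers and the genotype cannot be told apart.

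At 15 of the 20 maternal loci measured in all 7 libraries every matDKO/CAST library was below every wild-type library. The same held for 42.8% of all autosomal windows measured in the 7 libraries, so that this order was common across the genome. Zrsr1 had 4.21% ± 0.18 against 59.9% ± 25.3, Kcnq1ot1 11.6% ± 4.75 against 67.5% ± 12.98, and Peg3 11.8% ± 2.38 against 61.1% ± 10.5 (SD, n = 3 and 4). Errfi1 and Fkbp6 were in this group, at 25.6% ± 10.1 against 61.2% ± 5.27 and 27.5% ± 3.19 against 60.5% ± 11.8. Jade1 was not, at 41.5% ± 7.87 against 54.2% ± 21.7, and neither were Gab1, at 48.1% ± 15.01 against 63.0% ± 6.44, and Zfp64, at 31.4% ± 27.0 against 62.7% ± 27.2. The genotypes overlapped at all 4 paternal loci, where the means were 44.1% ± 6.22 in matDKO/CAST and 54.4% ± 9.24 in wild type (exact permutation test, p = 0.171).

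**Figure D5:**
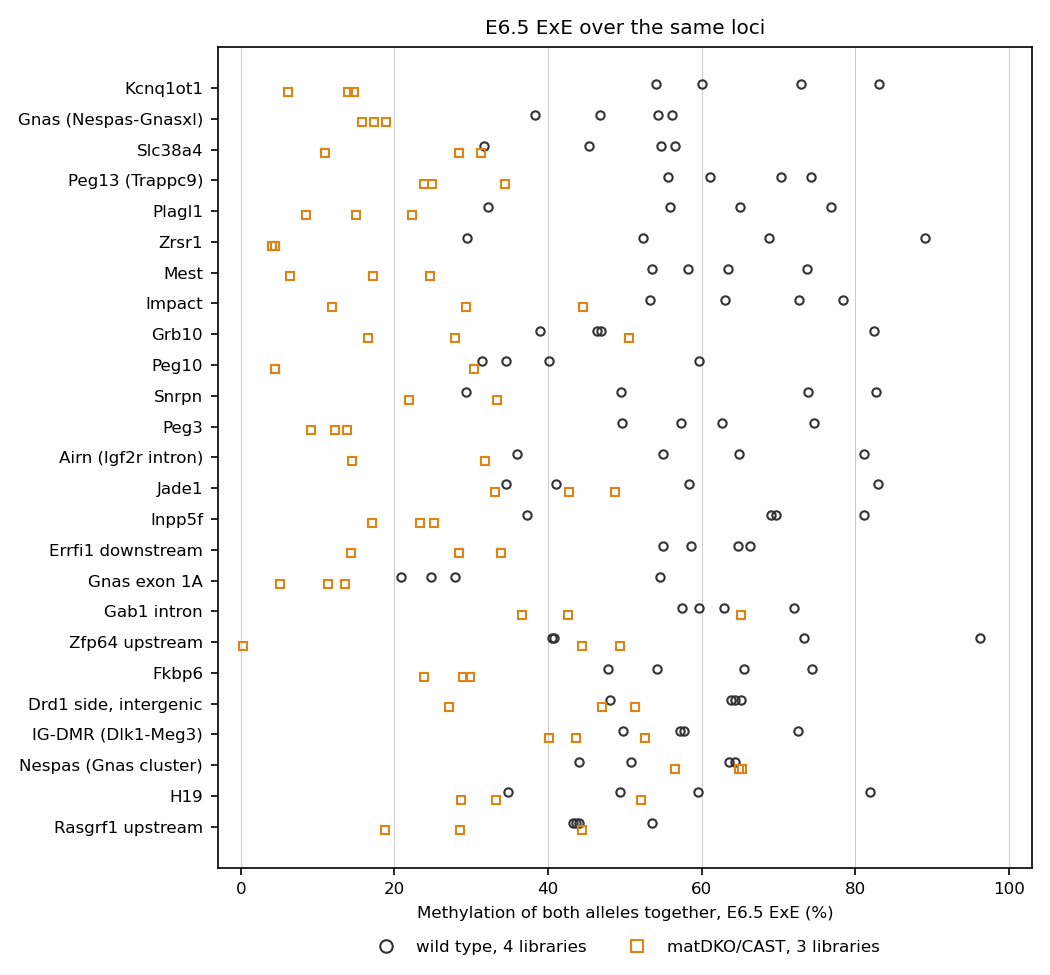
Methylation in percent of both alleles together (x axis) in E6.5 ExE over 25 of the 26 loci (y axis), with 1 point per library for wild type (circles, 4 libraries) and matDKO/CAST (orange squares, 3 libraries). The matDKO/CAST points are left of the wild-type points at Kcnq1ot1, Zrsr1 and Peg3, and the genotypes overlap at Jade1 and at the 4 paternal loci.

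In the broad domains the E6.5 values were set against each library's own mean. The body of Pde10a was -5.95 ± 2.92 points from the library mean in wild type and -13.6 ± 5.51 points in matDKO/CAST. The body of Sfmbt2 was above the library mean in both genotypes, by 7.55 ± 0.81 and 9.53 ± 1.34 points.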

How the data were processed

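Extra-embryonic ectoderm and epiblast had been separated by hand, bisulphite-converted and sequenced as PBAT libraries, and per the labels the conversion of the E7.5 samples was done a second time. The authors trimmed the reads with Trim Galore, mapped them to GRCm38, with strain variants masked, in Bismark and split them by allele with SNPsplit. The submitters' processing notes give Trim Galore 0.4.4 and Bismark 0.20.0 for the E6.5 samples and no version for the E7.5 samples. The deposited tables give methylation in percent per window and library, without coverage, so read depth and its precision are unknown and no counts could be tested.

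From these percentages, maternal minus paternal methylation was computed within each library and tested in limma 3.58.1 (R 4.3.3) with the cross coded in opposite signs, so that the intercept is the parental difference. The p-values were adjusted by Benjamini-Hochberg over all windows. Other steps used Python 3.11.15, pandas 2.3.3 and scipy 1.17.1. The E7.5 libraries came from individual embryos, and litters are not given in the sources used here. Gene starts came from GENCODE vM21. The limma steps were tested on simulated data.

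Every locus with a window that passed the test and the loci of the 30-point rule far from the lists were named, and gDMR and peak lists were described as groups. The other loci and genes named were chosen after their values were seen. The imprinted gene list is the study's compilation of known and putative genes from public catalogues and the literature, and the H3K4me3 peaks are the study's, from histone marks of the same tissues. The members and lists were chosen with earlier results of these data known. Sex chromosomes were left out, and 1 E6.5 column that names its group but no single library was not used here. Alternatives covered the variance model, the logit scale, the cross term, the replicate block, the thresholds, bin size and leaving out libraries. At 1 locus and its gene the values are not reported here.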

Additional observations from a re-analysis of the deposited data

Results flagged for a closer look

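At the Kcnq1ot1 window, 1 library was far from the others of its group. The second B6/CAST library had a difference of 96.3 points, and the other 3 had 92.7, 92.7 and 92.6. Of 75 groups examined in this way 1 stood out, where chance gives about 1 in 20.

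In 8 domains at least 1 100-kb bin had a parental difference that differed between ExE and epiblast in limma after adjustment over all bins. The domains had been chosen by their ExE values, which this contrast uses again, so the gaps below are a description. Over windows measured in all 8 libraries, ExE minus epiblast was -11.0 points at Sfmbt2 (2 of 3 bins passed) and -9.74 points at Smoc1 (2 of 2). It was 4.57 points around Kcnq1 (1 of 4) and 4.84 points in chr11:11700001-12300000 (1 of 3), where the bin that passed lies outside Grb10 and the only tested bin over that gene did not. The 4 domains of chromosome 17 had 6.45 points in chr17:3400001-5600000 (2 of 17, and 0 of 5 over Arid1b), 7.96 points around Pde10a (7 of 19), 9.48 points in the domain that ends at Igf2r (12 of 18, and 0 of 2 over that gene) and 9.73 points around Smoc2 (2 of 5).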

How the results depend on the processing

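With 4 libraries and 2 residual degrees of freedom, window calls depended on the variance estimate. The count of 23 called windows became 53 with a trend and robust fit, 29 on the logit scale and 30 without the cross term, and 23, 20 and 23 of the original windows were among them. It was 0 with both alleles required in only 3 libraries, and 0 to 0 when any 1 library was left out. Same-numbered libraries deviated with correlations of -0.00176 between the crosses and 0.00396 and 0.0108 between the tissues. Values near 0 show no pairing by number but cannot exclude it, because noise from unknown read depth could hide it. Whether same-numbered ExE and epiblast libraries share an embryo is not given here, and the contrast of tissues took all libraries as separate. With the replicate block 0 windows passed. Of the 16 named windows that passed, all 16 fell short with the block and in each leave-one-out fit, 8 others passed with the trend fit, and none changed direction in these settings. In the contrast of tissues the trend fit called 1 window in place of 0.

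The minimum of 20 points gave 70 loci in place of 26, and leaving out 1 library gave 31 to 50, the most without the first B6/CAST library. Loci far from the lists numbered 22 at 20 points, of which 19 were over 1 Mb away, and 0 at 40 points, beyond 1 Mb or with at least 2 windows. The genome-wide mean ranged from -0.309 to 0.161 points and was 0.161 without the first and 0.0790 without the second CAST/B6 library. The median at maternal gDMR peaks was 61.7 points when windows centred in a peak were averaged. That at non-canonical peaks was 0.84 to 8.65 when 1 library was left out, the highest without the first CAST/B6 library, and 6.24 with the Slc38a4 peak included, an alternative chosen after seeing the data.

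The 165 called bins fell to 46 without the cross term, to 19 with 250-kb bins and to between 43 and 63 without 1 library, whichever it was, and were 211 with the replicate block. The 35 bins that differed between tissues became 14 without the cross term and 9 to 34 without 1 library. The lower counts were 9 without the second B6/CAST ExE library, 13 without the second CAST/B6, 18 without the first B6/CAST and 20 without the second B6/CAST epiblast library. The chromosome 17 mean stayed between 6.91 and 7.48 points. The matDKO/CAST difference was -27.0 points against B6/CAST alone and -36.2 to -29.9 without 1 library, where exact permutation p-values of 0.0667 and 0.1 are the smallest those group sizes allow. Read depth is unknown, so a window with few reads cannot be told from a well covered one.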

Other observations

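Of the 165 called bins, 84 stood alone, 56 maternal and 28 paternal, and 71 of them were over 100 kb from every listed gene and peak. The median difference was 7.75 points among the maternal and -7.08 points among the paternal ones. At Mirg, a maternally expressed RNA at the far end of the Dlk1 and Meg3 cluster, the body was at 12.1, 16.1, 19.04 and 18.4 points in ExE and at 3.12 ± 9.70 points in epiblast, and all 6 of its windows were maternal in all 4 ExE libraries. Its bin did not pass in ExE (limma adjusted p = 0.0583) or in the contrast with epiblast (limma adjusted p = 0.732). Over the body of Mest the difference was 33.1 ± 8.53 points in ExE over 7 windows. Over the 6 of them measured in epiblast it was 38.3 points in ExE and 45.4 ± 3.29 in epiblast. Its neighbour Copg2, a coatomer subunit gene, was at 1.57 ± 5.69 points in ExE. Over Cobl, an actin nucleator gene next to Grb10, it was -1.13, 6.25, 18.5 and 10.8 points, with the CAST/B6 libraries the higher.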
